A study of Mus musculus with 2 samples.

Results

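Cxcl13-positive fibroblasts of the lung were described among sorted mesenchymal cells, as 301 of 18351 filtered cells. They were chosen from the data, as cells with at least 3 unique transcripts (UMIs) of Cxcl13 and 0 UMIs of Ptprc (leukocytes), Pecam1 (endothelium), Epcam (epithelium), Myh11 (smooth muscle), Mki67 and Top2a (dividing cells). Both groups shared the genotype Lepr-CreERT2;Rosa26-tdtomato and an age of 8 to 10 weeks, and differed in treatment, which was saline or the lung-injuring and fibrosis-inducing drug bleomycin. In these mice the Cre enzyme is driven by the leptin receptor gene and turns on the red protein tdTomato, so the mark reports Lepr activity at the time of recombination and not at collection. Live tdTomato-positive lung cells without CD45, EpCAM and CD31 were sorted and sequenced by droplet single-cell RNA-seq, with 1 library per treatment. Not given in the sources used here are the number of mice behind a library, the bleomycin dose, the collection day and the tamoxifen schedule. The libraries had no replicate, so no difference has a replicate check and no p-value is given, and every bracketed 95% interval covers counting error only.

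Cxcl13 is the chemokine that draws B cells and follicular helper T cells, through the receptor CXCR5, into the follicles of lymphoid tissue. Stromal cells of follicles make it in response to lymphotoxin and TNF receptors, which act through NF-kB, while stromal cells of T cell zones make Ccl19 and Ccl21 for the receptor CCR7. In inflamed lungs, fibroblasts that make Cxcl13 are found around clusters of lymphocytes outside lymphoid organs. Saa3 (a serum amyloid A protein), Lcn2 (lipocalin 2, which takes iron carriers from bacteria) and Wfdc12 (a secreted protease inhibitor) are acute phase or antimicrobial genes named with Cxcl13 as markers of these cells.

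To show where the rule's gene and its closest companions start, the bases upstream of the start sites of Cxcl13, Saa3 and Cxcl12 are printed 5′ to 3′ from RefSeq, build GRCm38.p6, with motif matches in capitals. The Cxcl13 gene lies at chr5:95956951-95961068 on the plus strand, Saa3 at chr7:46711998-46715700 on the minus strand and Cxcl12 at chr6:117168535-117181367 on the plus strand (GENCODE M21, mm10). The windows are chr5:95956689-95956938 (plus), chr7:46715701-46715926 (minus, read from the gene's strand) and chr6:117168285-117168534 (plus). Positions below are counted upstream from the RefSeq start, which for Cxcl13 and Saa3 differs from the GENCODE start given here. The Saa3 window has 226 bases and covers positions 250 to 25.
Cxcl13: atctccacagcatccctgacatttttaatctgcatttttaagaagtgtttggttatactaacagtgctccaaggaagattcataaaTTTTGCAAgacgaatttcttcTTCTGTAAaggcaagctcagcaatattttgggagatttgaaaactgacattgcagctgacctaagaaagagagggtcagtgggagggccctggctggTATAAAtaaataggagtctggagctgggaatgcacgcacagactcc
Saa3: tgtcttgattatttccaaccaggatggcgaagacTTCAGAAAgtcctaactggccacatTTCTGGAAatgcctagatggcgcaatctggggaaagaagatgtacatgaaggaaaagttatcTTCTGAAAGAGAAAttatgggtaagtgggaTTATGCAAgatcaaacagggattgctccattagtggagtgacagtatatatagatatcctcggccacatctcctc
Cxcl12: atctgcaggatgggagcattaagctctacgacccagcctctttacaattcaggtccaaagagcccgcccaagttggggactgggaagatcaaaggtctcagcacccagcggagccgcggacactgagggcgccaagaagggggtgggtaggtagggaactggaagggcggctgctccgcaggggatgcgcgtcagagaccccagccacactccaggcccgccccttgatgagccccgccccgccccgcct
The motifs searched on both strands were the TATA box, spelled TATAAA, a C/EBP motif, spelled TTNNGNAA, the core of the interferon-stimulated response element (ISRE) and the NF-kB site. The Cxcl13 window held a TATA box match at bases 46 to 41 upstream of the start and C/EBP matches at 164 to 157 and 143 to 136. The Saa3 window held C/EBP matches at 216 to 209, 191 to 184, 129 to 122 and 99 to 92, and an ISRE core match at 125 to 116 that overlaps the C/EBP match at 129 to 122. The Cxcl12 window held no match. Among 32851 RefSeq windows of 250 bases, 12.4% held the TATA box, 36.8% the C/EBP motif, 2.98% the ISRE core and 7.25% the NF-kB site. These letters are a description of the windows and were not tested against expression.

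In saline 60937359 UMIs were spread over 8396 barcodes, and in bleomycin 134732429 UMIs over 10138 barcodes. Filtering for at least 500 genes and at most 10% mitochondrial UMIs left 8350 and 10001 cells. The libraries shared 25 barcodes, of which 24 were filtered cells in both and 1 was a Cxcl13-positive cell. The matrices listed 0 features for tdTomato or Cre, so the mark itself could not be read. Cxcl13-positive cells were deep, with a median of 12434 UMIs in saline and 12859.5 in bleomycin, against 6753 and 11632 in cells with no Cxcl13 UMI. Of the 37 saline Cxcl13-positive cells, 22 remained after removal of the 5% of cells with the most UMIs, and of the 264 bleomycin cells 251 remained. No doublet caller was used, and the part of depth and doublets in the results was not tested.

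Cxcl13-positive cells made up 37 of 8350 saline cells (0.443% [0.312 to 0.610]) and 264 of 10001 bleomycin cells (2.64% [2.33 to 2.97]). Since the bleomycin library was deeper, every cell was also thinned at random to 2000 UMIs, which left out 157 saline and 200 bleomycin cells below that depth. A Cxcl13 UMI was then found in 50 of 8193 saline cells (0.610%) and 308 of 9801 bleomycin cells (3.14%), against 1.59% and 7.0% without thinning. The share was thus higher in the bleomycin library at equal depth too. Cells with at least 3 UMIs of Myh11, smooth muscle cells that serve as background for free RNA, held a Cxcl13 UMI in 0 of 449 thinned saline cells, which allows a share of up to 0.668%, and in 3 of 856 thinned bleomycin cells (0.350%). Their unthinned median depths were 7358.5 and 9257 UMIs. The thinned saline share of all cells was therefore within what the background count allows, while the bleomycin share was above its background. Unthinned, 1 of 454 saline Myh11 cells held a Cxcl13 UMI (0.220% [0.00558 to 1.22]). Among all saline cells the unthinned share was 1.59% [1.34 to 1.88], above that interval. In bleomycin 13 of 865 Myh11 cells (1.50%) held one, against 7.0%. At least 3 UMIs were found in 0 of 454 saline Myh11 cells, which allows up to 0.661%, against 0.503% of all saline cells.

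Cxcl13 itself was concentrated in few cells. Among the saline Cxcl13-positive cells the lowest count was 3, the median 6 and the highest 117 UMIs, and in bleomycin these were 3, 12 and 614. Pooled over the cells, the level was 1345 counts scaled to 1000000 UMIs of the pooled cells (CPM) in saline and 2916 CPM in bleomycin, or 1154 and 2766 CPM without the highest cell. The tenth of the cells with most Cxcl13 held 55.9% of its UMIs in saline and 54.4% in bleomycin. At least 30 UMIs were counted in 6 of 37 saline cells (16.2%) and 84 of 264 bleomycin cells (31.8%). The chosen cells carried 662 of all 899 Cxcl13 UMIs in filtered saline cells (73.6%) and 11043 of 14338 in bleomycin (77.0%).

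**Figure D1:**
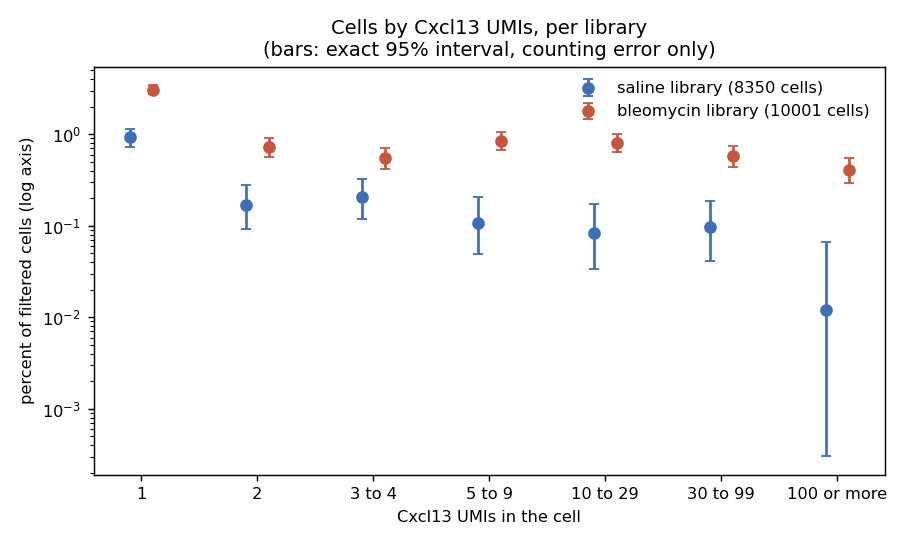
Percent of filtered cells (log axis) in each range of Cxcl13 UMIs per cell for the saline and bleomycin libraries, with exact 95% intervals as bars. Bleomycin lies above saline in every range from 1 UMI up, with 41 cells of at least 100 UMIs against 1 in saline.

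The gate removed 5 saline and 56 bleomycin cells that had at least 3 Cxcl13 UMIs. In bleomycin 29 of the 56 held a UMI of Top2a, 23 of Mki67 and 12 of Myh11, while Ptprc and Pecam1 were each found in 4 and Epcam in 1. The removed bleomycin cells were therefore most often cells with transcripts of cell division genes. For removal 1 UMI was enough, and their median depth was 19980.5 UMIs, against 12859.5 in the cells kept. Of 9301 bleomycin cells with no Cxcl13 UMI, 7035 passed the same gate. Just inside the threshold stood 7 saline and 30 bleomycin cells with 3 UMIs, and just outside 13 and 67 cells that passed the gate with 2 UMIs. Saa3 was 5271 CPM inside and 1065 CPM outside in saline, but 2839 and 3265 CPM in bleomycin. Cxcl12 was 1069 and 704 CPM in saline and 1122 and 1053 CPM in bleomycin. In bleomycin the cells on the outer side of the threshold thus held Saa3 and Cxcl12 at close to the levels of those on the inner side.

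The label of fibroblasts was checked against marker lists. All 37 saline and all 264 bleomycin Cxcl13-positive cells had UMIs of at least 3 of 12 pan-fibroblast genes (collagens, Dcn, Pdgfra and others), whose summed level was 9118 and 20701 CPM. Alveolar fibroblast genes, at least 3 of 12, were found in 37 of 37 and 245 of 264 cells (92.8%), and adventitial fibroblast genes, those of the loose sheath around vessels and airways, in 36 of 37 (97.3%) and 230 of 264 (87.1%). Smooth muscle genes, at least 3 of the list, were found in 13 of 37 (35.1%) and 97 of 264 cells (36.7%), and fibrotic fibroblast genes in 8 of 37 (21.6%) and 215 of 264 (81.4%). Most Cxcl13-zero cells met the fibroblast criteria too, at 97.0% and 97.5% for the pan-fibroblast, 91.4% and 84.6% for the alveolar and 66.7% and 71.8% for the adventitial list. Smooth muscle genes were found in 20.3% and 51.8% of Cxcl13-zero cells, and fibrotic genes in 11.9% and 83.0%. B and plasma cell markers summed to 18.3 and 83.2 CPM with 6 of 9 genes at 0 in each library, and T and NK cell markers to 2.03 and 2.64 CPM with 8 and 4 of 9 at 0. No Cxcl13-positive cell held 3 genes of either list or of the vascular and lymphatic endothelial lists. Pecam1 of the vascular list was at 0 by the rule itself. The same holds for Ptprc of the macrophage, Epcam of the epithelial and Myh11 of the smooth muscle list, so these genes are no check. Macrophage markers summed to 48.7 and 108 CPM, with 5 and 4 of 11 genes at 0 and at least 3 genes in 1 and 5 cells. Epithelial markers summed to 108 and 53.1 CPM, with 6 and 4 of 12 genes at 0. At least 3 epithelial genes were found in 2 of 37 (5.41%) and 2 of 264 cells (0.758%). In Cxcl13-zero cells these shares were 1.68% and 3.06%.

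One exception stood among the saline cells. A single cell of 25423 UMIs held all UMIs of the mesothelial genes Msln (71), Upk3b (41), Lrrn4 (20) and Wt1 (12) in the saline Cxcl13-positive cells, and 14 of 15 Kdr UMIs. In bleomycin 5 cells held at least 3 mesothelial genes, but Msln was at 0.792 CPM. Values that rest on the saline cell are given with and without it. Against the cells without Cxcl13 described below, leaving it out gave 281 of 8084 genes higher (3.48%) and 498 lower (6.16%) by the size rule given there.

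Of the 3 companion markers, Saa3 and Lcn2 were found in most but not all cells and Wfdc12 in few. Saa3 had a UMI in 29 of 37 saline cells (78.4%) and 197 of 264 bleomycin cells (74.6%), with 0, 23 and 514 UMIs as lowest, median and highest in saline and 0, 18.5 and 1043 in bleomycin. Its pooled level was 6047 and 5869 CPM, against 164 and 712 CPM in Cxcl13-zero cells, the 8217 saline and 9301 bleomycin filtered cells without a Cxcl13 UMI. The ratio was 36.8 [35.3 to 38.4] in saline and 8.24 [8.12 to 8.36] in bleomycin, so the level in Cxcl13-positive cells was alike in the libraries while that in the other cells was not. Lcn2 behaved in the same manner, with a UMI in 28 saline cells (75.7%) and 196 bleomycin cells (74.2%) and a level of 2281 and 2031 CPM against 68.7 and 299 CPM. At 2000 UMIs, Saa3 was detected in 75.7% and 65.5% of the Cxcl13-positive cells, in 3.20% and 14.9% of Cxcl13-zero cells and in 0.668% and 3.97% of the Myh11 background cells.

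Wfdc12 went against its place as a marker. It had 0 UMIs in the 37 saline cells, which allows a share of up to 8.11% of cells, against 85 of 8217 saline Cxcl13-zero cells (1.03%, 2.84 CPM), so no difference was detectable there. In bleomycin 18 of 264 cells (6.82%) held a UMI, with a highest count of 22, and the level of 26.4 CPM was that of the Cxcl13-zero cells (26.2 CPM). The higher Wfdc12 level lay in cells that held Saa3 and Lcn2 without Cxcl13, at 92.8 CPM with 63 of 560 cells (11.2%) positive. Against those cells the Cxcl13-positive cells were 3.51-fold lower (ratio 0.285 [0.229 to 0.351]).

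**Figure D2:**
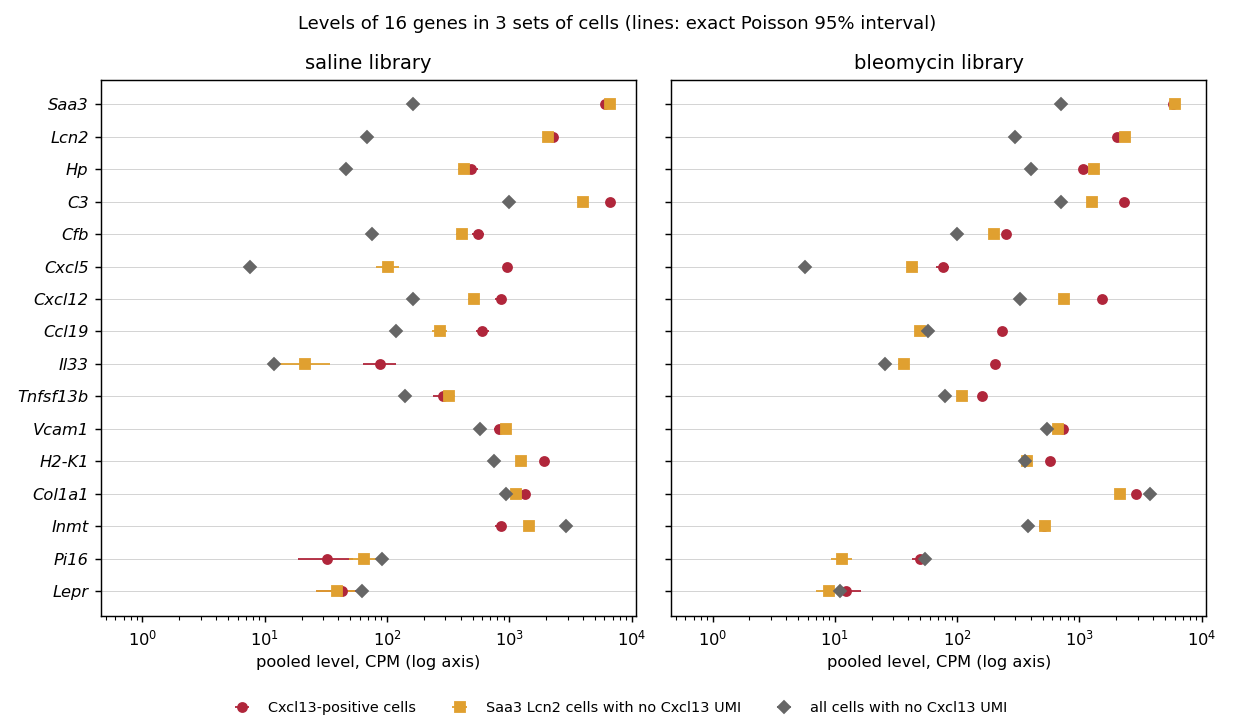
Pooled level in CPM (log axis) of 16 genes in Cxcl13-positive cells, in Cxcl13-zero cells with Saa3 and Lcn2, and in all Cxcl13-zero cells, for each library. Cxcl12, Ccl19 and Il33 stand highest in the Cxcl13-positive cells of both libraries.

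What the Cxcl13-positive cells shared beyond the rule was read against all Cxcl13-zero cells. The size rule asked for a ratio of at least 2-fold either way with an interval that left out 1, and for at least 10 CPM on the higher side. By this rule 364 of 8254 genes were higher (4.41%) and 432 lower (5.23%) in saline, and 144 of 7775 higher (1.85%) and 284 lower (3.65%) in bleomycin. With each cell's CPM averaged instead of pooled, the saline split was 459 higher and 861 lower. When all cells were thinned to 2000 UMIs it was 267 higher and 136 lower, so that 66.3% of the genes apart were higher in place of 45.7%. The same 49 genes were higher in both libraries, which is 13.5% of the saline and 34.0% of the bleomycin genes, and 68 were lower in both. Cxcl13 chose the cells, so these counts describe the choice and nothing is read from them.

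**Figure D3:**
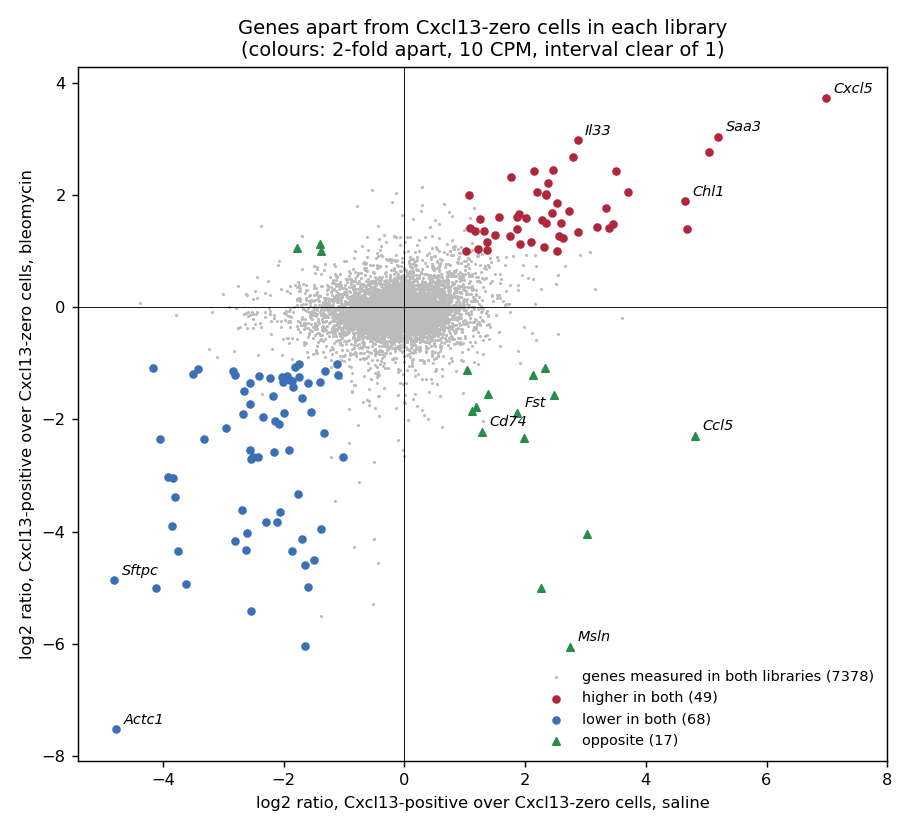
Log2 ratio of the level in Cxcl13-positive cells to that in Cxcl13-zero cells, saline on the x axis and bleomycin on the y axis, for 7378 genes. In the upper right are the 49 genes higher in both libraries, in the lower left the 68 lower in both, and 17 genes were called in opposite directions.

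Among lymphocyte-attracting and lymphoid stromal genes, 5 of 12 measured were higher in saline and 4 of 12 in bleomycin, with none lower, at list medians of 0.81 and 0.67 on the log2 scale against -0.09 and -0.10 over all genes tested. Cxcl12, which retains CXCR4-bearing cells such as B cells and their precursors, had UMIs in 35 of 37 saline cells (0, 8 and 40 as lowest, median and highest) and in 262 of 264 bleomycin cells (0, 18 and 120). Its level was 847 against 163 CPM in saline, a ratio of 5.18 [4.69 to 5.71], and 1522 against 329 CPM in bleomycin, 4.63 [4.51 to 4.76]. Cxcl12 was thus near universal among these cells and higher in both libraries. Ccl19, which guides T cells and dendritic cells, was less even, with 0, 5 and 45 UMIs in saline and 0, 1 and 73 in bleomycin and a UMI in 31 of 37 and 136 of 264 cells. The Ccl19 level was 603 against 118 CPM in saline (5.11-fold) and 232 against 57.7 CPM in bleomycin (4.03-fold). Ccl19 is counted with a near-identical second row at 0 UMIs, so its absolute level is uncertain.

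Il33, an alarmin of the IL-1 family that acts on innate lymphoid and regulatory T cells, was found in 9 of 37 saline cells (highest count 15) and 109 of 264 bleomycin cells (highest 78). Its level was 87.3 against 11.9 CPM in saline (7.31-fold [5.24 to 9.95]) and 202 against 25.8 CPM in bleomycin (7.85-fold [7.25 to 8.50]). The median cell held no Il33 UMI in either library, so the gene was high in a minority. At 2000 UMIs Il33 was seen in 16.2% and 19.4% of the cells, in 1.59% and 4.03% of Cxcl13-zero cells and in 0 of 449 saline (up to 0.668%) and 0.234% of bleomycin Myh11 background cells. Tnfsf13b, the B cell survival factor BAFF, had UMIs in 34 of 37 and 191 of 264 cells and a level of 284 against 140 CPM in saline (2.03-fold [1.71 to 2.40]) and 160 against 80.1 CPM in bleomycin (2.00-fold [1.84 to 2.17]), at the edge of the size rule. Vcam1, the adhesion partner of lymphocyte integrins, was only 1.42-fold and 1.36-fold higher and did not meet it, and neither did Icam1 at ratios of 0.697 and 1.18 or Pdpn at 1.39 and 1.47.

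The pathway that turns on Cxcl13 in follicles was read beside the shares over all genes, of which 4.41% were higher in saline and 1.85% in bleomycin. None of 6 measured TNF and lymphotoxin receptors was higher in saline and none of 7 in bleomycin, where the decoy receptor Tnfrsf11b was lower. Ltbr, the lymphotoxin receptor, was at 20.3 against 19.7 CPM in saline and 35.9 against 33.8 CPM in bleomycin. Of the NF-kB subunits and feedback genes 3 of 16 were higher in saline, among them Traf1 at 10.2 against 2.61 CPM, and none of 15 in bleomycin. The subunits Nfkb1 (0.924 and 1.10), Relb (1.32 and 0.970) and Nfkb2 (1.46 and 1.06) did not meet the rule in either library. These transcript levels say nothing of the activity of the proteins.

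Acute phase and antimicrobial genes were higher in 11 of 15 measured in saline and 12 of 16 in bleomycin, with list medians of 1.90 and 1.50 on the log2 scale. Hp, which binds free haemoglobin, was at 487 against 46.6 CPM in saline (10.5-fold) and 1075 against 402 CPM in bleomycin (2.67-fold). Saa1 was 13.0-fold and 4.15-fold higher and the protease inhibitor Serpina3n 3.74-fold and 3.16-fold. Chil1, a chitinase-like protein, was at 264 against 25.9 CPM and 441 against 129 CPM. Complement genes were higher in 4 of 9 and 6 of 10 members. C3, the central complement protein, was at 6638 against 1002 CPM in saline (6.63-fold [6.39 to 6.86]) and 2333 against 712 CPM in bleomycin (3.27-fold [3.20 to 3.35]), and Cfb of the alternative pathway was 7.31-fold and 2.53-fold higher.

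Chemokines for monocytes, eosinophils and lymphocytes were higher in 9 of 11 measured in saline and in 6 of 12 in bleomycin, where Ccl5 was lower. Ccl11, the eosinophil chemokine eotaxin, was at 1101 against 101 CPM in saline (10.9-fold) and 200 against 71.0 CPM in bleomycin (2.81-fold). Ccl7 and Ccl8, monocyte chemokines, were 5.87-fold and 9.13-fold higher in saline and 2.43-fold and 2.68-fold in bleomycin. Cxcl5, a neutrophil chemokine, had the largest ratio of the 14 genes ranked highest over both libraries, at 965 against 7.59 CPM in saline and 76.1 against 5.74 CPM in bleomycin. Its UMIs lay in 17 of 37 saline cells and 56 of 264 bleomycin cells, and 1 saline cell held 37.1% of them, without which the level was 629.7 CPM. Cxcl9 and Ccl5, interferon-related T cell chemokines, had most of their UMIs in few cells, though 17 of 37 saline cells held a Cxcl9 UMI. Of the saline Cxcl9 UMIs 69.7% lay in 3 of 37 cells, and 98.4% of the bleomycin ones in 3 of 264, while 98.1% of saline Ccl5 UMIs lay in 3 cells.

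Other genes ranked among the highest in both libraries covered hormones, enzymes and interferon-inducible genes. Fgf23, a phosphate-regulating hormone, was at 16.2 against 1.43 CPM in saline (11.4-fold) and 16.6 against 3.07 CPM in bleomycin (5.41-fold). Cyp1b1, a cytochrome P450, was 5.52-fold and 5.48-fold higher. Ifi205 and Ifi207 of the interferon-inducible p200 family were 4.43-fold and 4.61-fold higher in saline and 5.37-fold and 4.14-fold in bleomycin. Chl1, a cell adhesion molecule, was at 28.4 against 1.13 CPM and 358 against 96.7 CPM. Serpina3m (6.90-fold and 6.36-fold) and Rassf2 (5.75-fold and 3.64-fold) completed the ranking. In saline, Fgf23 rested on 8 UMIs, Cyp1b1 on 9, and Ifi207, Serpina3m and Rassf2 on 6 each, so their saline ratios are imprecise. The Wnt antagonist gene Sfrp1 was 2.33-fold and 2.05-fold higher.

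Lower genes were led by epithelial and smooth muscle transcripts. Sftpc, the surfactant protein of alveolar type 2 cells, was at 8.12 against 227 CPM in saline (28.0-fold lower) and 13.7 against 400.1 CPM in bleomycin (29.1-fold lower). Actc1, a cardiac actin also found in vein muscle, had 0 UMIs in saline against 167 CPM (at least 27.4-fold lower against a floor of 3 counts over the set) and 2 UMIs in bleomycin against 97.0 CPM. Cnn1, of contractile smooth muscle, was at 0 and 2.91 CPM against 74.4 and 88.4 CPM. The epithelial list held 5 of 5 measured genes lower in saline and 7 of 7 in bleomycin, and the smooth muscle list 7 of 8 and 8 of 8. The rule had excluded cells with Epcam and Myh11 UMIs from one side alone. When the same gate was put on the Cxcl13-zero cells, the log2 ratio of Sftpc was still -3.35 in saline and -3.59 in bleomycin, while in bleomycin Cnn1 stood at -0.67, Synpo2 at -0.024 and Actg2 at -1.69. In saline, Cnn1 had 0 UMIs against 40 in the gated cells, too few for a direction. Igkc, an immunoglobulin chain, was 8.17-fold lower in bleomycin (67.6 against 552 CPM, 38.0 CPM without 1 cell), but its log2 ratio of -3.03 was -1.29 against gated cells and 0.13 without the 5% of cells with the most UMIs.

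Genes of fibrotic fibroblasts were lower in bleomycin Cxcl13-positive cells for 9 of 11 measured, with Sfrp1 alone higher and a list median of -1.88 on the log2 scale. Cthrc1, which marks collagen-rich fibrotic fibroblasts, was at 29.1 against 271 CPM (9.32-fold lower) and was detected in 6.06% of the cells against 25.3%. Postn, a matrix protein of fibrosis, was 5.99-fold lower. Spp1 (osteopontin) was at 1272 against 7702 CPM (6.06-fold lower), yet 171 of 264 cells (64.8%) held a Spp1 UMI. Spp1 was thus detected widely at a lower pooled level, and 1 cell held 20.1% of its UMIs. Of 25 fibrillar matrix genes 7 were lower and none higher, and Col1a1 itself did not meet the rule (2903 against 3777 CPM).

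Alveolar fibroblast genes differed in direction between the libraries. In saline 6 of 12 measured were lower, among them Inmt, a methyltransferase (849 against 2893 CPM, 3.41-fold lower), Npnt, a basement membrane protein (471 against 1065 CPM, 2.26-fold lower) and Slc7a10 (4.73-fold lower). In bleomycin none of 11 was lower and 2 were higher, Ces1d at 358 against 155 CPM and Scube2 at 76.1 against 37.8 CPM. Inmt and Npnt were at 517 against 377 CPM and 565 against 402 CPM there and did not meet the rule. The difference between the libraries was not tested. Lepr, the gene that drives the mark, was at 42.7 against 62.0 CPM in saline (ratio 0.688 [0.425 to 1.05]) and 12.4 against 11.0 CPM in bleomycin (1.12 [0.822 to 1.50]) and met the rule in neither.

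The Cxcl13-positive cells were next compared with Cxcl13-zero cells that held Saa3 and Lcn2. Of the Cxcl13-positive cells themselves, 22 of 37 and 134 of 264 met the same threshold. The comparator was 75 saline and 560 bleomycin gated cells with at least 3 UMIs each of Saa3 and Lcn2 and 0 of Cxcl13, at median depths of 10327 and 14345.5 UMIs. Here 317 of 8182 genes were higher (3.87%) and 153 lower (1.87%) in saline, and 92 of 7472 higher (1.23%) and 39 lower (0.522%) in bleomycin. Without the saline cell with mesothelial genes the saline counts were 190 higher and 171 lower. Of the measured acute phase genes 2 of 13 were higher in saline and 1 of 15 in bleomycin. Hp (ratios 1.14 and 0.816), C3 (1.65 and 1.82) and Tnfsf13b (0.892 and 1.46) did not meet the rule in either library.

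Higher in bleomycin were signals to lymphocytes and, over all 264 cells, adventitial genes. Il33 was at 202 against 36.5 CPM (5.54-fold [4.86 to 6.34]), Ccl19 at 232 against 49.9 CPM (4.65-fold) and Cxcl12 at 1522 against 743 CPM (2.05-fold [1.98 to 2.12]). Of 11 adventitial fibroblast genes 6 were higher and none lower, with a list median of 1.82 on the log2 scale against 0.01 over all genes. Ly6c1, a surface protein of adventitial cells, was at 50.4 against 7.09 CPM (7.11-fold [5.31 to 9.63]), Ly6a, known as Sca-1, at 249 against 70.2 CPM (3.54-fold) and Pi16, a peptidase inhibitor, at 49.9 against 11.4 CPM (4.36-fold). Sfrp4, a secreted Wnt antagonist, was at 22.4 CPM against 3 UMIs in the comparator (ratio 65.4 [21.6 to 323]). The proteoglycans Dcn and Lum, which bind collagen fibrils, were 2.58-fold and 2.94-fold higher. Among the 134 members that held Saa3 and Lcn2 like the comparator, Ly6c1 and Ly6a of 8 measured adventitial genes were higher. Over all genes 63 of 7406 were higher there (0.851%), and the adventitial list median was 0.04. The list summed to 1716 CPM in these cells, 1686 CPM in the comparator and 3723 CPM in the members with under 3 UMIs of each of these genes. In the 134 members with Saa3 and Lcn2, Pi16 was at 9.01 against 11.4 CPM in the comparator and Sfrp4 had 0 UMIs. Their ratios of Dcn (1.30) and Lum (1.47) fell short of the rule. Over all 264 cells, the matrix protease Mmp3 was at 832 against 381 CPM (2.19-fold). The noncoding RNA Meg3 (4.65-fold), Aldh1a2, which makes retinoic acid (4.58-fold), Ccl8 (2.56-fold) and Mmp23 (2.31-fold) completed the ranking with Ifi207 (3.82-fold) and Rassf2 (3.65-fold).

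Lower in bleomycin were Spp1 (1272 against 4261 CPM, 3.35-fold), Il11, a profibrotic cytokine (29.1 against 142 CPM, 4.89-fold), Fst, an activin antagonist (88.2 against 267 CPM, 3.03-fold) and Tnc, tenascin C (227 against 516 CPM, 2.28-fold). Scgb1a1 was lower as well, but 1 comparator cell held 98.2% of its UMIs, and without it the comparator fell from 1276 to 22.9 CPM. The fibrotic list held 3 lower of 10 measured and none higher. In saline, Fst was higher instead (24.4 against 7.53 CPM).

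In saline the same comparison gave Il33 at 87.3 against 21.3 CPM (4.09-fold), Dcn at 1028 against 356 CPM (2.88-fold), Ly6a at 288 against 108 CPM (2.67-fold), Ly6c1 at 32.5 CPM against 0 UMIs (at least 8.63-fold) and Ccl19 at 603 against 270 CPM (2.24-fold). Cxcl12 was 1.66-fold higher and did not meet the rule. Aldh1a2 was at 48.7 CPM against 1 UMI, and without the mesothelial-gene cell its log2 ratio moved from 5.28 to 2.77. When the saline Cxcl13-positive cells were limited to those with Saa3 and Lcn2, the direction turned for Il33 (log2 ratio -2.66), Dcn (-1.77), Ly6a (-1.54) and Mmp23 (-0.80), while Cxcl5 was still higher (1457 against 101.6 CPM). In that comparison 180 of 8143 genes were higher (2.21%) and 185 lower (2.27%). In bleomycin it turned for Meg3 (-0.44) and Ccl8 (-0.032). The higher values for these genes therefore came from Cxcl13-positive cells with fewer than 3 UMIs of Saa3 or Lcn2.

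The Cxcl13-positive cells were thus described in sets by Saa3 and Lcn2, a split chosen after the values were seen. At least 3 UMIs of both were found in 22 of 37 saline cells (59.5%) and 134 of 264 bleomycin cells (50.8%), and under 3 UMIs of each in 7 (18.9%) and 59 cells (22.3%). The remaining 8 and 71 cells lay between. Median depth was 14578 UMIs in the rich and 11285 in the poor bleomycin cells. Cxcl13 itself was at 2952 CPM in the rich and 2670 CPM in the poor bleomycin cells, and at 1494 and 360 CPM in saline. Cxcl13 chose the cells, so its level in the rich and poor sets is part of the choice and nothing is read from it.

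Cxcl13-positive cells were 134 of 779 gated bleomycin cells with Saa3 and Lcn2 (17.2% [14.6 to 20.04]) and 59 of 5651 without (1.04% [0.796 to 1.34]). In saline they were 22 of 112 (19.6% [12.7 to 28.2]) and 7 of 7020 (0.0997% [0.0401 to 0.205]). With every cell thinned to 2000 UMIs, a Cxcl13 UMI was found in 99 of 660 bleomycin cells with a UMI of both genes (15.0%) and 83 of 5471 with neither (1.52%), and in 13 of 109 (11.9%) and 20 of 6858 (0.292%) saline cells. The share among Saa3 Lcn2 cells was close in the libraries, with intervals that overlapped. The share among cells without them was higher in the bleomycin library, with intervals that did not overlap. These intervals cover counting error only, and with 1 library per treatment the difference was not tested. The thinned saline share of 0.292% was within the 0.668% that the thinned saline Myh11 background allows.

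The rich and poor bleomycin cells differed in their other genes, with 131 of 7861 genes higher in the rich (1.67%) and 387 lower (4.92%). Beside Saa3 and Lcn2, which made the split, the rich cells held more Hp (1519 against 319 CPM, 4.77-fold), Csf3, the neutrophil growth factor (303 against 42.6 CPM, 7.12-fold), Cxcl5 (117 against 11.7 CPM, 9.93-fold), Cd14, a receptor for bacterial lipopolysaccharide (114 against 11.7 CPM, 9.70-fold) and Ereg, an EGF receptor ligand (331 against 86.7 CPM, 3.82-fold). The poor cells held more Pi16 (164 against 9.01 CPM, 18.3-fold), Col14a1 (355 against 57.2 CPM, 6.21-fold), Lum (214 against 43.7 CPM, 4.91-fold), Il33 (423 against 108 CPM, 3.93-fold) and Ccl19 (419 against 148 CPM, 2.83-fold). Sfrp4 had 0 UMIs in the 134 rich cells and 98.4 CPM in the poor. Cxcl12 was alike, at 1559 and 1519 CPM. Of 11 adventitial genes 7 were higher in the poor cells and none in the rich. A UMI of Pi16 or Ly6c1 was found in 29 of 59 poor cells (49.2%), 18 of 134 rich cells (13.4%) and 16.4% of gated Cxcl13-zero cells.

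**Figure D4:**
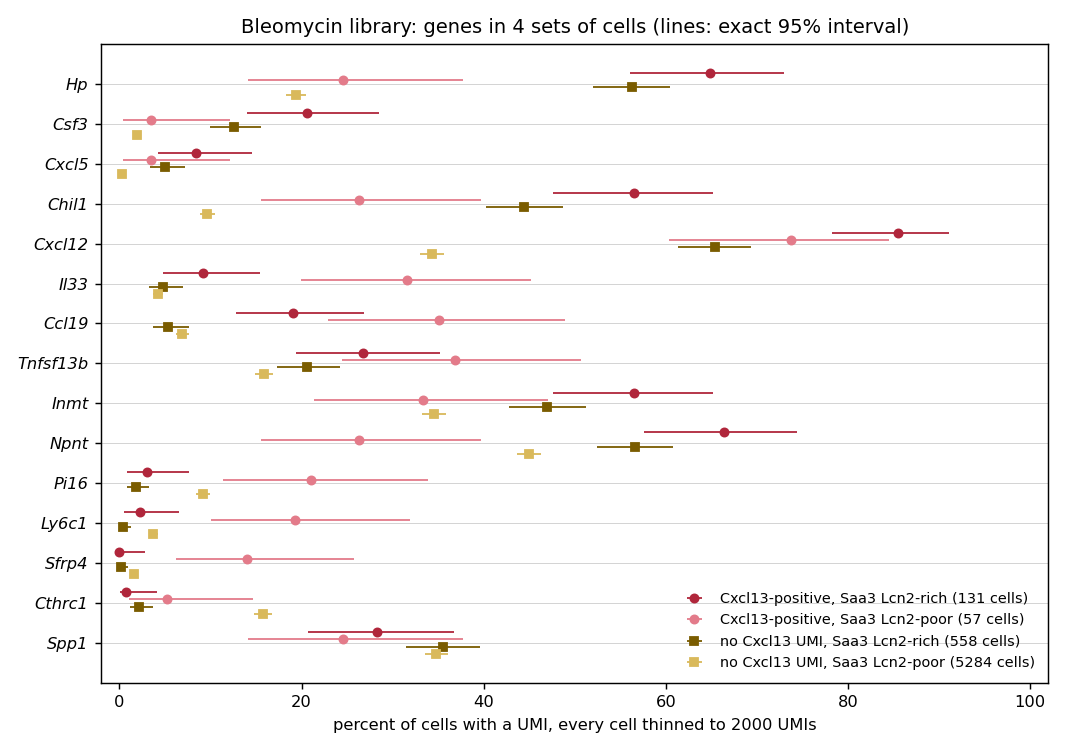
Percent of bleomycin cells with a UMI of 15 genes after thinning to 2000 UMIs, in Cxcl13-positive cells with Saa3 and Lcn2 (131 cells) and without (57), and in Cxcl13-zero cells with (558) and without (5284). Hp is high in both sets with Saa3 and Lcn2, and Il33 and Pi16 stand highest in the Cxcl13-positive cells without.

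At 2000 UMIs these patterns were of the same order. Il33 was seen in 9.16% of the rich and 31.6% of the poor Cxcl13-positive cells, against 4.84% and 4.26% of the matching Cxcl13-zero cells. Ccl19 was seen in 19.1% and 35.1%, against 5.38% and 6.87%, and Cxcl12 in 85.5% and 73.7%, against 65.4% and 34.3%. Both bleomycin sets of Cxcl13-positive cells thus held each of the 3 genes more often than their matching cells. In saline the Il33 ratio of members with Saa3 and Lcn2 to matching cells was -2.66 on the log2 scale, on 1 UMI against 17. Hp was seen in 64.9% and 24.6%, against 56.3% and 19.3%, and so followed Saa3 and Lcn2 more than Cxcl13.

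To find genes that went with Cxcl13 in both sets, each was compared with Cxcl13-zero cells alike in Saa3 and Lcn2. Among the rich, 63 of 7406 genes were higher (0.851%) and 57 lower (0.77%), and among the poor 324 of 7991 were higher (4.05%) and 238 lower (2.98%). The same 34 genes were higher in both, 54.0% of the rich and 10.5% of the poor list, and 28 were lower in both. Il33 (2.95-fold [2.48 to 3.50] and 15.9-fold [13.99 to 18.02]), Ccl19 (2.96-fold and 8.79-fold), Cxcl12 (2.10-fold and 5.41-fold) and Ly6c1 (3.49-fold and 5.98-fold) were among the 34, with Cyp1b1 (2.81-fold and 7.73-fold), Ifi205 (2.51-fold and 5.67-fold), the collagenase Mmp8 (2.61-fold and 2.45-fold) and Csf3 (2.19-fold and 2.16-fold). Lower in both were Spp1 (3.03-fold and 5.10-fold), Il11 (3.12-fold and 6.41-fold) and Areg, an EGF receptor ligand linked to repair (3.93-fold and 4.11-fold). Cthrc1 was 3.95-fold lower among the poor and the same, 22.5 CPM, on both sides among the rich. All these cells come from 1 library.

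Within the bleomycin cells, companion genes were also read along the level of Cxcl13. There were 117 cells with 3 to 9 UMIs, 63 with 10 to 29 and 84 with at least 30, at median depths of 12212, 12864 and 13992 UMIs. Cells rich in Saa3 and Lcn2 made up 39.3%, 55.6% and 63.1% of them. Saa3 was 5192, 5613 and 6835 CPM along this order and Cxcl12 1272, 1552 and 1797 CPM. Il33 had no such order, at 185, 108 and 285 CPM, and Ccl19 was 162 CPM in both lower ranges and 361 CPM in the highest. A Saa3 UMI was found in 69.2%, 81.0% and 77.4% of these bleomycin cells. In saline the same ranges held 24, 7 and 6 cells. Saa3 was 5303, 4157 and 10553 CPM in them and Cxcl12 867, 802 and 827 CPM.

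The last comparison was between treatments, bleomycin against saline Cxcl13-positive cells, with the same ratio in Cxcl13-zero cells beside it. Treatment, library and depth cannot be told apart here. Of 8131 genes 359 were higher (4.42%) and 476 lower (5.85%) in the Cxcl13-positive cells, and of 8103 genes 447 were higher (5.52%) and 490 lower (6.05%) in the Cxcl13-zero cells. With 37 saline cells, 330 genes were called after thinning to 2000 UMIs in place of 835, and the part of depth in this list was not tested.

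Antigen presentation and interferon genes were lower in the bleomycin cells. Of 15 antigen presentation genes 14 were lower, with a list median of -1.66 on the log2 scale against -0.04 over all genes, while in Cxcl13-zero cells 4 of 15 were lower with a median of -0.66. H2-K1, a class I molecule, was at 575 against 1915 CPM (3.33-fold lower, and 2.09-fold in Cxcl13-zero cells) and B2m, its partner, at 1707 against 4129 CPM (2.42-fold, and 1.58-fold). Cd74, the class II invariant chain, was at 9.77 against 93.4 CPM (9.56-fold, and 1.19-fold). Interferon response genes were lower for 12 of 19, with Gbp5 at 4.75 against 67.0 CPM and 1 gene higher, against 9 of 16 lower in Cxcl13-zero cells. Cxcl9 was at 49.1 against 644 CPM and Ccl5 at 3.70 against 219 CPM, both resting on the few saline cells named above. The difference between the Cxcl13-positive and Cxcl13-zero ratios was not tested.

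Of 24 fibrillar matrix genes 13 were higher and none lower in the bleomycin cells, with Fn1, fibronectin, at 4541 against 674 CPM (6.73-fold, and 5.67-fold in Cxcl13-zero cells), Col12a1 at 70.5 against 8.12 CPM (8.68-fold, and 4.46-fold) and Col1a1 at 2903 against 1349 CPM (2.15-fold, and 4.03-fold). All 7 fibrotic genes that met the rule of 9 measured were higher. Spp1 was at 1272 CPM against 0 UMIs in saline (at least 209-fold), beside 7702 against 2.32 CPM in Cxcl13-zero cells. Csf3 (202 CPM against 0 UMIs, at least 33.1-fold), Ereg (246 CPM against 0 UMIs, at least 40.4-fold) and Ptx3, a soluble pattern receptor (152 CPM against 1 UMI, 74.8-fold [13.4 to 2958]), were at or near 0 UMIs in saline, and the ratios in Cxcl13-zero cells were 3.66, 14.3 and 4.29. Ace, angiotensin-converting enzyme, was at 113 CPM against 1 UMI (55.8-fold [9.96 to 2208]), beside a ratio of 10.5 in Cxcl13-zero cells, and Smoc2, a matricellular protein, at 50.4 CPM against 1 UMI (24.8-fold [4.40 to 986]), beside 1.13. Fst was 3.62-fold higher, beside 48.6-fold in Cxcl13-zero cells, and Mmp3 was at 832 against 160 CPM (5.19-fold) where its ratio in Cxcl13-zero cells was 0.869.

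Il33, Ccl19 and Cxcl12 had no common direction between treatments. Il33 was 2.32-fold higher in bleomycin (2.16-fold in Cxcl13-zero cells), Ccl19 2.60-fold lower (2.05-fold lower) and Cxcl12 1.80-fold higher, short of the rule. Saa3 had a ratio of 0.971 [0.934 to 1.01] and Lcn2 of 0.891, where the Cxcl13-zero cells were 4.34-fold and 4.35-fold higher in bleomycin. Ccl11 was 5.51-fold lower (200 against 1101 CPM), C3 2.85-fold lower (2333 against 6638 CPM) and Cxcl5 12.7-fold lower (76.1 against 965 CPM). Inmt was 1.64-fold lower in the Cxcl13-positive cells, short of the rule, and 7.68-fold lower in Cxcl13-zero cells. Lepr was 3.44-fold lower (12.4 against 42.7 CPM), beside 5.61-fold in Cxcl13-zero cells.

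**Figure D5:**
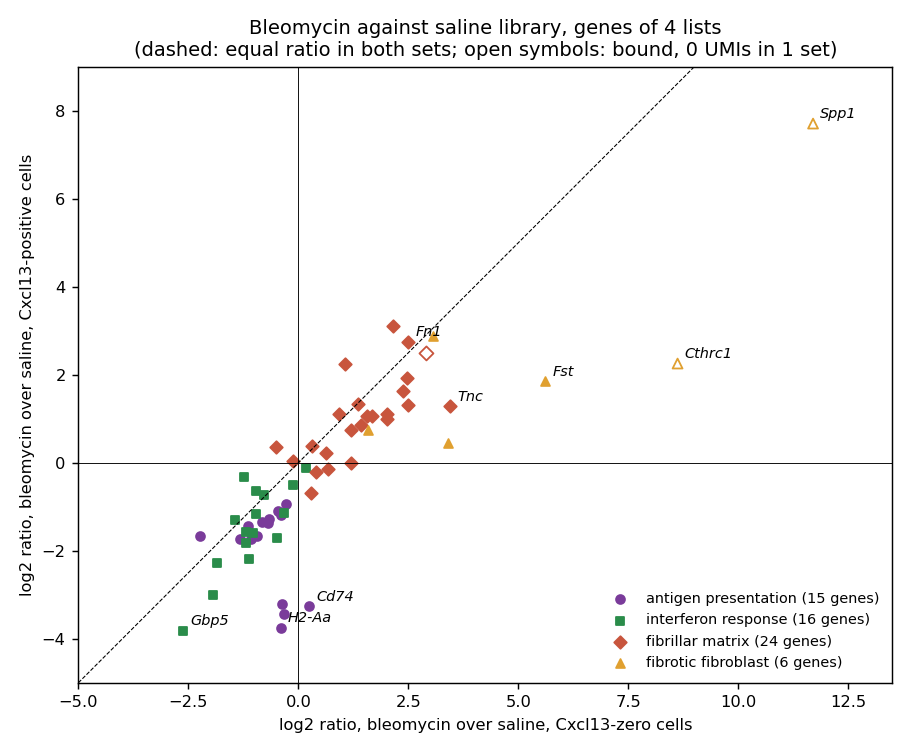
Log2 ratio of bleomycin to saline in Cxcl13-zero cells (x axis) and in Cxcl13-positive cells (y axis) for genes of antigen presentation (15), interferon response (16), fibrillar matrix (24) and fibrotic fibroblasts (6), open symbols marking bounds against 0 UMIs. Most antigen presentation genes lie below 0 on both axes and most matrix genes above 0 on both.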

How the data were processed

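The deposited matrices hold raw UMI counts per gene and cell barcode, which the authors made with Cell Ranger 6.1.2 on mm10 per the submitters' processing notes, from 10x 3' v3 libraries per the labels. Counts were pooled over the cells of a set and divided by the set's total (CPM). Shares carry exact Clopper-Pearson intervals and ratios exact conditional binomial intervals, at 95%. Fold bounds against 0 UMIs used a floor of 3 counts over the set. The size rule was tested on simulated counts. Gene positions came from GENCODE M21, with 32235 identifiers matched. No doublet caller was used. Members and gene lists were chosen with earlier results of these data known. Named genes were the listed markers, 2 to 4 genes per list by ratio with its best known member, and those ranked highest and lowest by the smaller ratio of both libraries, with a UMI in at least 10% of Cxcl13-positive cells for higher genes. Genes of the Saa3 and Lcn2 split, and some others given as values, were named after their values were seen. Alternatives changed thresholds, filters, depth, scaling, pooling and comparators. Python 3.11.15, numpy 2.4.6, scipy 1.17.1, pandas 2.3.3 and matplotlib 3.10.9 were used.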

Additional observations from a re-analysis of the deposited data

Results flagged for a closer look

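Against Cxcl13-zero cells, 9 named or listed genes met the size rule in opposite directions in the saline and bleomycin libraries, as log2 ratios of Cxcl13-positive to Cxcl13-zero cells, and the difference between the libraries was not tested for any of them. Ccl5 stood at 4.82 in saline and -2.29 in bleomycin, and Cd74 at 1.29 and -2.22. The fibrosis-related genes Fst (1.87 and -1.88), Ltbp2 (1.39 and -1.54) and Tnc (1.05 and -1.12) had the same order, and without the saline cell with mesothelial genes their saline values were 1.95, 1.47 and 1.12. Scube2, an alveolar fibroblast gene, went the other way, from -1.37 in saline to 1.01 in bleomycin. The mesothelial genes Msln (2.74 and -6.05) and Upk3b (2.27 and -5.01) had all their saline UMIs in 1 cell and 0 UMIs without it. Slco2a1, a prostaglandin transporter, stood at 2.48 and -1.56, and its saline value without that cell was -0.54, which did not meet the rule.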

How the results depend on the processing

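No paired analysis was possible because each treatment had 1 library and no replicate numbers. Leaving out a library would have left no comparison. The member share in saline was 0.263% at a threshold of 5 Cxcl13 UMIs and 0.277% without the 5% of cells with the most UMIs, and in bleomycin it was 3.31% at 2 and 2.19% at 5 UMIs. Genes apart from Cxcl13-zero cells in saline numbered 796, but 403 at 2000 UMIs per cell and 1320 with each cell's CPM averaged, and the share of higher genes was 45.7%, 66.3% at 2000 UMIs, 55.3% with scaling by the median ratio and 34.8% with averaging. In bleomycin 428 became 1243 with no minimum CPM and 269 against gated Cxcl13-zero cells. Against Saa3 Lcn2 cells, 470 in saline became 127 at 2000 UMIs and 1308 with averaging, and 131 in bleomycin became 327, 198 with averaging and 443 with no minimum. Between treatments 835 became 330 at 2000 UMIs and 1312 with averaging. The other alternatives stayed within 1.5 times, among them the added ones chosen after seeing the data, at 779 and 361 in saline and 757 between treatments without the mesothelial-gene cell, and 365, 120 and 761 with Saa3 Lcn2 members only.

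Of 904 values that alternatives gave for 94 ratios of named genes, 701 stayed within the counting interval, 186 moved in the same direction and 8 reversed. The other 9 had 0 UMIs in one set, so the ratio is a bound against the floor of 3 counts and gives no direction. They were Ramp1 and Synpo2 in saline at 2000 UMIs, Actc1, Actg2 and Cnn1 in saline against gated cells, Ifi207 in saline against Saa3 Lcn2 cells at 5 Cxcl13 UMIs, and Gdnf, Bdkrb1 and Slfn5 between treatments at 2000 UMIs. Among the reversed log2 ratios, Ramp1 in saline against gated cells (0.82) rested on 1 UMI against 60, and Igkc reversed in bleomycin (0.13) without the 5% of cells with the most UMIs. Among members with Saa3 and Lcn2, Il33 (-2.66), Ly6a (-1.54), Dcn (-1.77) and Mmp23 (-0.80) reversed in saline, and Meg3 (-0.44) and Ccl8 (-0.032) in bleomycin. The cause was not tested. With 37 saline cells, genes of few UMIs could not be given a direction at 2000 UMIs per cell.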

Other observations

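Cxcl13-positive cells of the bleomycin library also differed from Cxcl13-zero cells in genes of retinoid and matrix handling. Crabp1, a retinoic acid binding protein, was at 28.0 against 2.98 CPM (9.40-fold) and Mmp3 at 832 against 240 CPM (3.47-fold), while in saline Mmp3 was at 160 against 276 CPM and did not meet the size rule. Of 14 measured proteases and inhibitors 5 were higher and 1 lower in bleomycin, and in saline 1 of 11 was higher, Timp1, at 3518 against 288 CPM (12.2-fold). Timp1 had a ratio of 0.880 in bleomycin. Of the immediate early genes, which rise when tissue is dissociated, 0 of 15 were called in either library, where 4.41% and 1.85% of all genes were higher and 5.23% and 3.65% lower. Their list medians were -0.23 and 0.32 on the log2 scale, beside -0.09 and -0.10 over all genes.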
